A study of Mus musculus with 30 samples.

Results

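Collagens are secreted proteins whose chains wind into a helix of intertwined strands, and each chain is the product of its own gene. Fibrillar collagens (types I, II, III, V, XI, XXIV and XXVII) build the tensile fibres of the interstitium. Basement membrane collagens comprise type IV, the network under epithelia and around vessels, together with types XV and XVIII, whereas FACIT collagens decorate the surface of fibrils. The remaining types include the beaded filaments of type VI, the anchoring fibrils of type VII, the networks of types VIII and X and transmembrane collagens such as type XVII of hemidesmosomes. In the lung, accumulation of fibrillar collagen is the hallmark of fibrosis, and TGF-β is a known inducer of it, while the α3, α4 and α5 chains of type IV form the network of the alveolar basement membrane. The family was defined by gene symbol, as every gene named Col, a type number, the letter a and a chain number. This gave 44 of 55487 genes, of which 11 were fibrillar, 8 basement membrane, 9 FACIT and 16 other collagens.

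The values came from bulk RNA-sequencing of mouse lung organoid co-cultures. In each culture, 300000 primary CD31-CD45-Epcam+ lung cells of an adult wild type C57BL/6J mouse, male or female, were mixed with 300000 CCL206 cells, a mouse lung fibroblast line that had been inactivated with mitomycin C, in Matrigel. All cultures thus shared the same single fibroblast line, inactivated in the same way, and Matrigel is itself an extract of basement membrane. The cultures were exposed for 72 hours to vehicle, to EC, to IPFc or to 2 ng/ml TGF-β, and then separated with Epcam microbeads into Epcam+ cells (epithelial fraction) and Epcam- cells (fibroblast fraction). EC is a cocktail of factors raised in COPD exacerbations and, per the labels, contained TNFα, IL-1β, IL-6 and IL-8, although the study's methods give KC, a mouse chemokine, in place of IL-8 for mouse cells. IPFc is a cocktail of factors associated with idiopathic pulmonary fibrosis and contained TGF-β and TNFα, the interleukins IL-33, IL-13, IL-8, IL-4 and IL-1β, the chemokine CCL2 and the epithelial cytokine TSLP, so TGF-β was present in both IPFc and the TGF-β treatment. Each of the 8 groups held the cultures of 4 mice, except fibroblasts with vehicle (no library of mouse 2 analysed here) and epithelial cells with TGF-β (none of mouse 1), which had 3 each, so that 30 libraries were used.

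The libraries held 5113828 to 20317181 counted reads. The smallest was the fibroblast EC library of mouse 1, which also stood apart in its collagen levels. Its Col4a1 level was 432 CPM (reads of a gene relative to the library total, scaled by TMM, edgeR's correction for composition), against 875 to 911 CPM in the other fibroblast EC libraries, so fibroblast EC results are given with and without it. This library was also in the fit of the other fibroblast comparisons, and some of their calls changed without it. Each fraction held reads of markers of the other fraction. Whether these came from cells of the other fraction or from expression in the fraction's own cells was not tested. The median ratio of fibroblast markers other than collagens between an epithelial library and its fibroblast partner was 5.45% ± 2.03 (SD, n = 4) with vehicle, 11.3% ± 4.15 (n = 4) with EC, 10.2% ± 3.85 (n = 4) with IPFc and 28.4% ± 3.48 (n = 3) with TGF-β. Conversely, the median ratio of epithelial markers between a fibroblast library and its epithelial partner was 19.6% ± 6.75 (n = 3) with vehicle, 43.8% ± 8.91 (n = 4) with EC, 17.4% ± 7.96 (n = 4) with IPFc and 2.04% ± 1.18 (n = 4) with TGF-β. The epithelial vehicle library of mouse 2 and the fibroblast TGF-β library of mouse 1 had no partner of their own and were set against the mean of the partner group. Single markers spread around these medians. In fibroblast libraries the epithelial markers lay at 11.08 to 91.05% of the partner with vehicle and at 15.99 to 183.1% with EC. In epithelial libraries the fibroblast markers lay at 3.144 to 12.75% with vehicle and at 4.238 to 36.58% with EC. The median ratios moved with the treatments, and they are set beside the results below. As an alternative, the partner's counts multiplied by this median ratio were subtracted from each library, with results under 0 set to 0, and all tests were repeated. Partner libraries also held markers of the fraction they were subtracted from. The subtraction can therefore remove a library's own reads as well, and it adds the spread of the partner. Whether a call lost after it rested on reads of the other fraction was not tested. All 15 epithelial markers were above 1 CPM in every epithelial library, and also in every fibroblast library except those with TGF-β, where 12 were, whereas Thy1 was at 0 in every library of 6 of the 8 groups, the fibroblast vehicle group included. Markers of endothelial and immune cells summed to at most 3.63 and 4.66 CPM, respectively, in any library. Smooth muscle markers moved with TGF-β, from sums of 5.28 to 8.50 CPM with vehicle to 247 to 361 CPM in the epithelial fraction and from 51.8 to 72.9 CPM to 428 to 721 CPM in the fibroblast fraction, and their part in the collagen values was not tested. Bulk libraries cannot tell fewer cells of a type from less RNA per cell.

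In vehicle cultures the fibroblast fraction expressed the collagens of connective tissue, while in the epithelial fraction the type IV chains Col4a1 and Col4a2 had the highest collagen levels. Collagens took 1.11% ± 0.0639 (SD, n = 3) of all counted reads in the fibroblast fraction and 0.189% ± 0.0266 (n = 4) in the epithelial fraction. In the epithelial fraction most of this share was basement membrane collagen, at 0.133% ± 0.0136, against 0.0367% ± 0.0141 for fibrillar collagen. In the fibroblast fraction the order was the opposite, with 0.620% ± 0.00145 for fibrillar and 0.269% ± 0.0375 for basement membrane collagen. Per kilobase of transcript, the highest mean levels in the fibroblast vehicle group were those of Col1a2 (536 CPM per kb), Col1a1 (218), Col3a1 (149), Col4a1 (143), Col18a1 (120) and Col6a1 (115). In the epithelial vehicle group they were those of Col4a1 (99.9 CPM per kb), Col4a2 (73.9) and Col1a2 (34.3).

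Col1a1, the α1 chain of type I collagen and the major protein of interstitial fibres, was at 131, 71.0, 71.7 and 56.7 CPM in the epithelial vehicle libraries of mice 1 to 4. In the fibroblast vehicle libraries of mice 1, 3 and 4 it was at 1335, 1179 and 1369 CPM. Col3a1, the fibrillar chain that accompanies type I in distensible tissue, was at 32.9 to 66.7 CPM in the epithelial and at 760 to 891 CPM in the fibroblast libraries. For both genes the fractions were far apart without overlap. Col4a1, the ubiquitous α1 chain of type IV, was at 682, 554, 732 and 676 CPM in the epithelial and at 747, 1019 and 1071 CPM in the fibroblast libraries of the same mice, so that these levels nearly met.

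Across the family, 35 collagens were tested between the fractions in vehicle cultures, and 24 were lower and 2 higher in the epithelial fraction (edgeR quasi-likelihood test with the mouse as a block, Benjamini-Hochberg adjusted p under 0.05 over all genes tested). Of all genes tested, 28.2% were lower and 27.8% higher. The median log2 difference over the tested collagens was -2.36, against 0.022 over all genes. All 9 fibrillar collagens that passed were lower in the epithelial fraction, by log2 differences of -2.27 (Col11a2) to -4.38 (Col3a1, SE 0.30, adjusted p = 2.21e-12). The FACIT member Col16a1 (log2 difference -4.14) and the type VI chains Col6a1, Col6a2 and Col6a3 (-3.82, -3.85 and -3.99) were also lower. By contrast, Col4a1 and Col4a2 were lower by log2 differences of only -0.52 (SE 0.17, adjusted p = 0.0101) and -0.48 (SE 0.19, adjusted p = 0.0346). Col4a4, an α4 chain of the alveolar network, was higher (log2 difference 1.28, SE 0.37, adjusted p = 0.0043), and so was Col17a1, the hemidesmosomal collagen (2.30, SE 0.75, adjusted p = 0.0108), although the latter in 2 of 3 mouse pairs only. For Col4a3 and Col4a6 the log2 differences were 0.50 and 0.28 and did not pass (adjusted p = 0.217 and 0.228). After subtraction 22 collagens were lower and 1, Col4a4, was higher (2.02, adjusted p = 0.0237). Of all genes 25.75% were then lower and 20.62% higher. The calls of Col17a1 (4.42, adjusted p = 0.0516), Col4a1 (-0.66, adjusted p = 0.0914) and Col4a2 (-0.63, adjusted p = 0.186) were lost.

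The partner ratio shows which epithelial values were at the level of the fibroblast markers (plot of epithelial levels as a percent of fibroblast levels). Among 27 collagens with at least 0.5 CPM in every vehicle and TGF-β partner, Col1a1, Col1a2, Col3a1, Col5a1, Col6a3 and Col16a1 had median ratios of 4.28 to 5.34% in vehicle cultures, close to the 5.45% of the markers. A group of 10 collagens exceeded the highest fibroblast marker in every vehicle culture, namely Col4a1 to Col4a6, Col7a1, Col8a1, Col12a1 and Col17a1. Their median ratios ranged from 31.9% for Col4a5 to 695% for Col17a1. With TGF-β, Col1a1 was at a median ratio of 26.4% and Col3a1 at 23.5%, again close to the 28.4% of the markers. In those cultures 9 collagens exceeded the highest marker in all 3 pairs, and these included Col27a1 (286%), Col4a6 (397%) and Col8a1 (225%). Any fibroblasts in an epithelial library need not have the profile of the sorted fibroblasts, which was not tested.

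**Figure D1:**
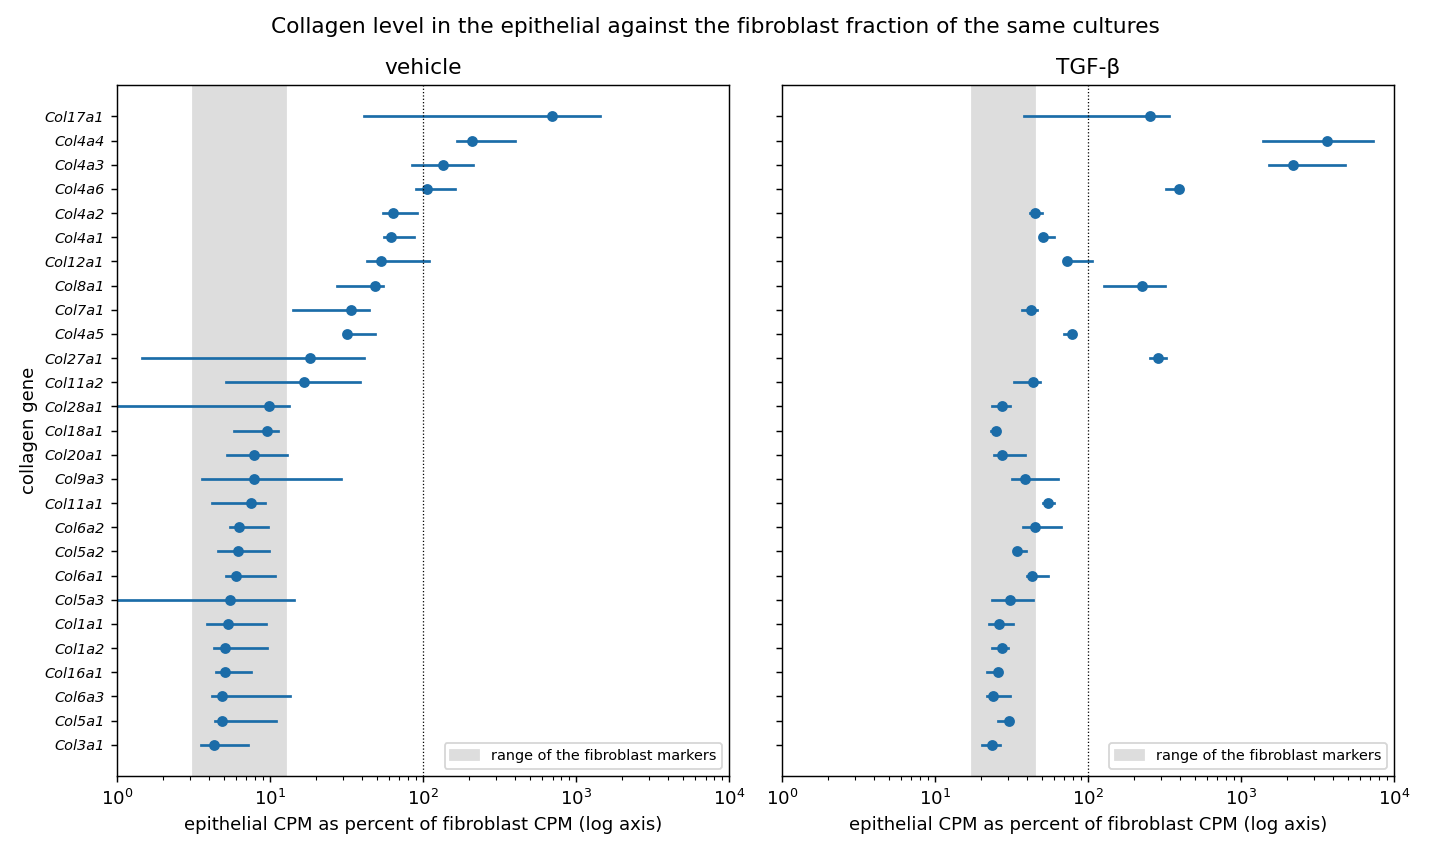
Level of 27 collagens in the epithelial fraction as a percent of the level in the fibroblast fraction of the same culture, on a log axis, with vehicle (left, 4 cultures, mouse 2 against the mean of the fibroblast vehicle libraries) and TGF-β (right, 3 cultures). Points are medians, lines run from the lowest to the highest culture (values under 1% are drawn at 1), and the grey band spans the fibroblast markers other than collagens. Col1a1, Col3a1 and Col5a1 lie in the band in both panels, whereas Col4a3, Col4a4, Col4a6 and Col8a1 lie above it.

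TGF-β changed more collagens in the fibroblast fraction than either cocktail did. Of 36 collagens tested, 14 rose and 7 fell, against 6.39% and 12.8% of all genes tested, and the median log2 fold change was 0.49 over the collagens and -0.016 over all genes. Fibrillar chains and type VII rose, the ubiquitous α1 and α2 chains of type IV rose 2.03- and 2.07-fold, and the α3 to α6 chains of type IV and 2 of the 3 type VI chains expressed here fell. The collagen share of all reads was 2.25% ± 0.142 (n = 4), against 1.11% with vehicle. The epithelial marker ratio fell over the same comparison from 19.6% to 2.04%. After subtraction 7 collagens rose and 4 fell, against 1.403% and 3.436% of all genes. All 11 were among those called before, with the same direction.

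Of the 11 fibrillar collagens 8 rose and none fell. Col1a1 was at 3831, 3571, 4976 and 4156 CPM in the fibroblast TGF-β libraries of mice 1 to 4, all above the 1179 to 1369 CPM of the vehicle libraries (3.35-fold, log2 fold change 1.74, SE 0.16, adjusted p = 2.44e-07). Col3a1 was at 1203, 1255, 1404 and 1114 CPM, also above all vehicle libraries, but by a smaller margin (1.52-fold, log2 0.60, SE 0.13, adjusted p = 0.00185). After subtraction Col3a1 no longer passed (log2 0.30, adjusted p = 0.295), whereas Col1a1 did (1.45, adjusted p = 0.000925). Col1a2 rose by 1.18 on the log2 scale, and Col5a1 and Col5a2, the chains of the type V collagen that nucleates fibrils, by 1.64 and 1.67.

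The largest fibrillar increases were those of minor chains. Col5a3, the α3 chain of type V, was at 5.04, 2.55 and 4.91 CPM with vehicle and at 33.3, 28.6, 33.1 and 24.7 CPM with TGF-β (log2 fold change 2.97, SE 0.28, adjusted p = 4.43e-07). Col11a1, which nucleates fibrils as part of type XI, was at 8.42, 13.5 and 11.1 CPM with vehicle and at 53.7, 42.6, 52.3 and 30.5 CPM with TGF-β (2.05, SE 0.21, adjusted p = 9.19e-07). Both genes were higher in every TGF-β library than in any vehicle library. Col11a2 rose by 1.02, while Col27a1 did not pass (0.51, adjusted p = 0.177). Without the fibroblast EC library of mouse 1, which is part of this fit, Col27a1 passed (0.57, adjusted p = 0.0466).

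The type I chains did not rise in parallel. The ratio of Col1a1 to Col1a2, per kilobase of transcript and within a library, was 0.379 to 0.422 in the fibroblast vehicle libraries and 0.548 to 0.629 with TGF-β. The ratio of Col1a1 to Col3a1 was 1.32 to 1.69 with vehicle and 2.67 to 3.50 with TGF-β. Neither pair of ranges overlapped. These ratios do not depend on the scaling between libraries, and no separate test was made of them.

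**Figure D2:**
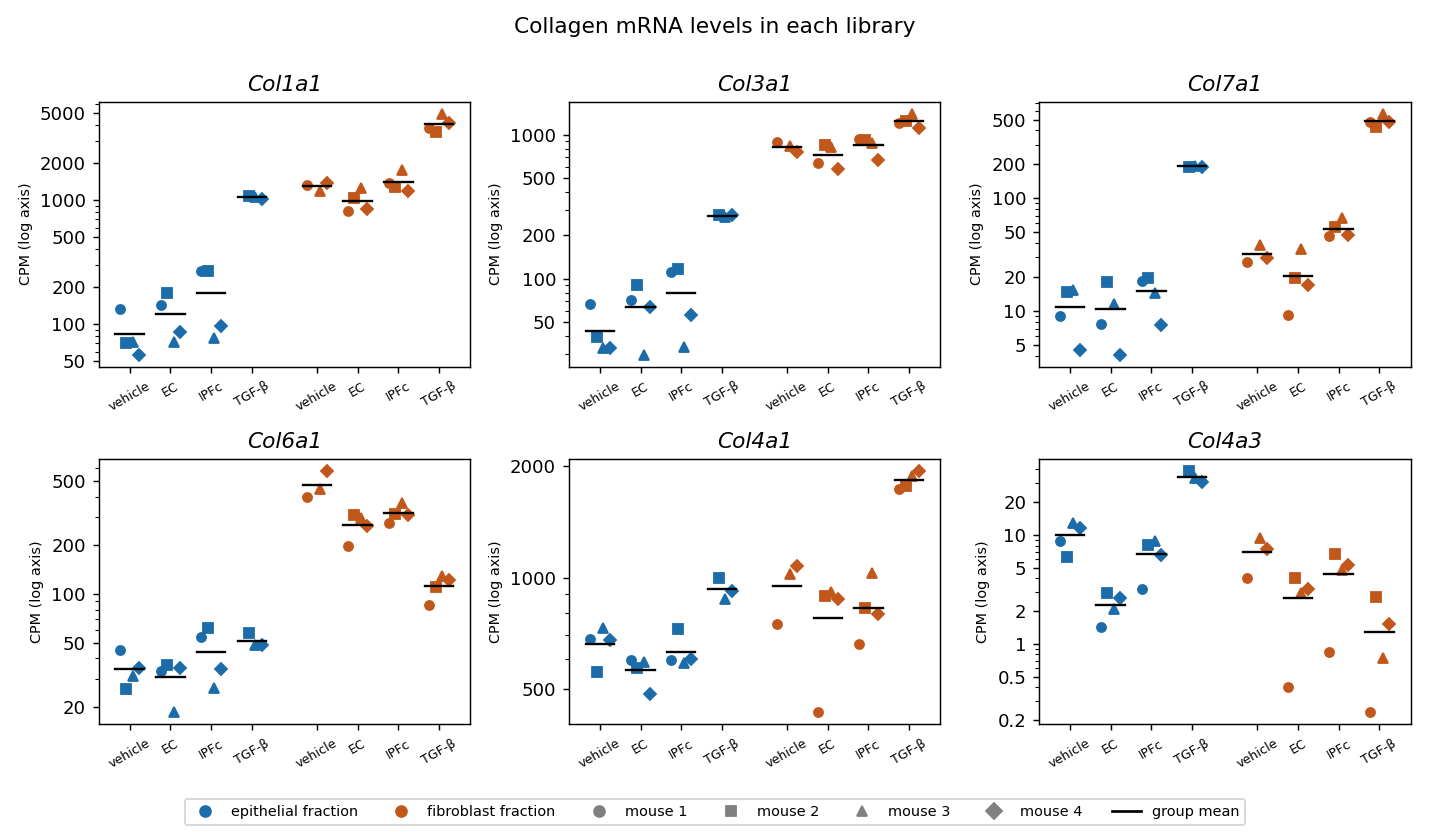
Levels of 6 collagens in all 30 libraries, in CPM on log axes, by fraction and treatment. Each point is a library, its shape marks the mouse, and black lines are group means. With TGF-β, fibroblast Col7a1 rose to 431 to 564 CPM and fibroblast Col6a1 fell to 85.2 to 130 CPM, while Col4a3 was high in the epithelial and low in the fibroblast fraction.

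Col7a1, the single chain of the type VII anchoring fibrils that fasten basement membrane to stroma, had the largest log2 fold change of the collagens called in the fibroblast TGF-β comparison. It was at 27.4, 38.5 and 29.7 CPM in the vehicle libraries and at 474, 431, 564 and 480 CPM in the TGF-β libraries, with a wide gap between the groups (16.4-fold, log2 4.03, SE 0.23, adjusted p = 1.97e-09). After subtraction the value was 3.82 (adjusted p = 0.00018). The promoter window of Col7a1 is shown because of this change. It is taken from RefSeq (GRCm38.p6, chr9:108953336-108953635, plus strand, from 250 bases before to 50 bases after the gene start), with capitals marking the letters of the CCAAT box and of the GC box, GGGCGG, in either orientation.
Col7a1: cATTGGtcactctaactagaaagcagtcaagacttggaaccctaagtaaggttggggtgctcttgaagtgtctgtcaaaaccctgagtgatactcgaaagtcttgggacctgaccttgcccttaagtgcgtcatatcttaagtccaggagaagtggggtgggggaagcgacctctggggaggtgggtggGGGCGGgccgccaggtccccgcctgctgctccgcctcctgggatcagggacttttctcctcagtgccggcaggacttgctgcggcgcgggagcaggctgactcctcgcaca
Of all 32851 RefSeq windows of this length, 37.4% held CCAAT and 35.7% held GGGCGG on either strand. Among the 38 windows of the 35 collagens with an entry the shares were 34.2% and 60.5%. The letters CAGAC, the core of the Smad binding element, occurred in 52.6% of the collagen windows and 49.6% of all windows, and TATAAA in 13.2% and 13.6%. A match describes the letters in the window only.

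The 6 type IV chains split in the fibroblast fraction into a pair that rose and 4 that fell. The ubiquitous chains Col4a1 and Col4a2 rose together with TGF-β. Col4a1 was at 1738, 1765, 1883 and 1939 CPM with TGF-β and at 747, 1019 and 1071 CPM with vehicle, so that all TGF-β libraries were above all vehicle libraries (2.03-fold, log2 1.02, SE 0.16, adjusted p = 0.000156). Col4a2 rose by 1.05 (SE 0.19, adjusted p = 0.00071). After subtraction neither passed, with log2 fold changes of 0.91 for Col4a1 (adjusted p = 0.176) and 0.94 for Col4a2 (adjusted p = 0.328). Within a library the ratio of Col4a1 to Col4a2 per kilobase ranged from 1.32 to 1.43 with vehicle and from 1.32 to 1.39 with TGF-β, so that these ranges overlapped.

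Both genes are transcribed from a shared region in opposite directions, and their windows are shown for that reason. In RefSeq the start of Col4a1 (minus strand) and the start of Col4a2 (plus strand) used for the windows lie 21 bases apart on chromosome 8, and the windows share 78 bases. The first runs over chr8:11312777-11313076 and the second over chr8:11312555-11312854 of GRCm38.p6, each printed on the strand of its gene with the CCAAT and GGGCGG letters of either orientation in capitals.
Col4a1: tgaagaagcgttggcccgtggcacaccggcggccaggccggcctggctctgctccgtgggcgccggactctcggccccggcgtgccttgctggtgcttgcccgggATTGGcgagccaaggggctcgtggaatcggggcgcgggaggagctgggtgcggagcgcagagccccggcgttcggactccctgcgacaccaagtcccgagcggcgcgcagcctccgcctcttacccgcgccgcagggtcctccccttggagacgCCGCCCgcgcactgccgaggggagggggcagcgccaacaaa
Col4a2: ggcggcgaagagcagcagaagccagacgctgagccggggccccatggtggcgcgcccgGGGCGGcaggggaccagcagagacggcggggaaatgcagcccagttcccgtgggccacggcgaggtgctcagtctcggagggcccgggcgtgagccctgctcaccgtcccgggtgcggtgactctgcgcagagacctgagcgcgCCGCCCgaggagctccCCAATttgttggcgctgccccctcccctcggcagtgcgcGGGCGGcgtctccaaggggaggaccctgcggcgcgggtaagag

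The chains of the alveolar and epithelial type IV networks fell in the fibroblast fraction. Col4a3 was at 3.98, 9.46 and 7.49 CPM with vehicle and at 0.234, 2.67, 0.745 and 1.51 CPM with TGF-β (log2 fold change -2.94, SE 0.35, adjusted p = 6.69e-06). Col4a4 was at 3.91, 6.04 and 6.61 CPM with vehicle and at 0.234, 3.21, 0.558 and 1.15 CPM with TGF-β (-2.66, SE 0.38, adjusted p = 5.05e-05). For both genes every TGF-β library was below every vehicle library. Col4a6 fell by 1.76 and Col4a5 by 0.75 on the log2 scale. With TGF-β, Col4a3 was at a higher level in the epithelial fraction of these cultures than in the fibroblast fraction, by ratios of 1525 to 4792%, and the epithelial marker ratio in the fibroblast libraries fell in the same comparison. After subtraction Col4a3 and Col4a5 still fell (adjusted p = 0.00498 and 0.0469), whereas Col4a4 was at -4.09 (adjusted p = 0.055) and Col4a6 at -1.79 (adjusted p = 0.312) and did not pass.

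Type VI collagen is assembled from an α1 chain, an α2 chain and a longer chain such as α3. Its chains moved in opposite directions with TGF-β in the fibroblast fraction. Col6a1 was at 397, 446 and 576 CPM with vehicle and at 85.2, 110, 130 and 121 CPM with TGF-β, with no overlap between the groups (log2 fold change -2.05, SE 0.13, adjusted p = 6.24e-09). Col6a2 fell by 2.04 (SE 0.13, adjusted p = 7.98e-09), from 134 to 164 CPM to 28.2 to 41.0 CPM. Col6a3 rose by 1.24 (SE 0.25, adjusted p = 0.00156), from 694 to 979 CPM to 2017 to 2068 CPM. The ratio of Col6a3 to Col6a1 per kilobase was 0.766 to 0.985 in the vehicle libraries and 7.18 to 10.7 in the TGF-β libraries, whereas that of Col6a1 to Col6a2 was 4.31 to 5.10 and 4.40 to 4.89. After subtraction Col6a1 and Col6a2 fell by 2.35 and 2.34 (adjusted p = 1.50e-05 and 2.91e-05), and Col6a3 was at 0.96 and did not pass (adjusted p = 0.169).

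Col6a1 and Col6a2 lie on chromosome 10 (chr10:76708792-76726044 and chr10:76595756-76623630, GRCm38.p6), with 85161 bases between them. Their windows (chr10:76725995-76726294 and chr10:76623581-76623880, both minus strand) are shown because these genes fell by nearly the same amount, with the same letters in capitals.
Col6a1: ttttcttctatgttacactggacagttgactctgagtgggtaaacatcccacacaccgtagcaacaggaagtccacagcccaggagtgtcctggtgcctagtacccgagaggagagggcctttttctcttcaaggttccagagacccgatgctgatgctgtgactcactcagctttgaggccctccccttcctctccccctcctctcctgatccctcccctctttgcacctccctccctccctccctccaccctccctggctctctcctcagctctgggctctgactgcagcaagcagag
Col6a2: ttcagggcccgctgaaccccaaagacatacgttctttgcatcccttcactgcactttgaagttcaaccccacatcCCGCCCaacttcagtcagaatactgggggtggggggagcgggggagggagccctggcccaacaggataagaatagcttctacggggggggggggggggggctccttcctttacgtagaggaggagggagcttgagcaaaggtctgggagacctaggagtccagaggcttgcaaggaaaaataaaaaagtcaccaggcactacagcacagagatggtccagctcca
Neither CCAAT nor GGGCGG occurred in the Col6a1 window, and this Col6a2 window held 1 GGGCGG. RefSeq lists a second Col6a2 start, whose window (chr10:76623355-76623654) held 3 and no CCAAT.

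Among the other collagens of the fibroblast fraction, Col12a1, a FACIT member that links fibrils, rose with TGF-β by 1.40 on the log2 scale (SE 0.31, adjusted p = 0.00348). Col18a1, the proteoglycan core from which endostatin is cleaved, rose by 0.73 (adjusted p = 0.000897). After subtraction both calls were lost, with values of 1.31 and 0.44 (adjusted p = 0.445 and 0.168). Col8a2, a short-chain network collagen, was low throughout and fell, with 18, 12 and 13 reads in the vehicle libraries and 0, 3, 0 and 2 reads in the TGF-β libraries (adjusted p = 0.00703). At these counts no fold is given. Without mouse 3 this call was lost (adjusted p = 0.0528), and it was also lost after subtraction (adjusted p = 0.0752). Col8a1 and Col16a1 did not pass (log2 fold changes -0.35 and 0.28, adjusted p = 0.0606 and 0.161). Without the fibroblast EC library of mouse 1, Col16a1 passed (0.33, adjusted p = 0.0292), and so did Col10a1, a collagen with few reads (1.77, adjusted p = 0.0307).

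**Figure D3:**
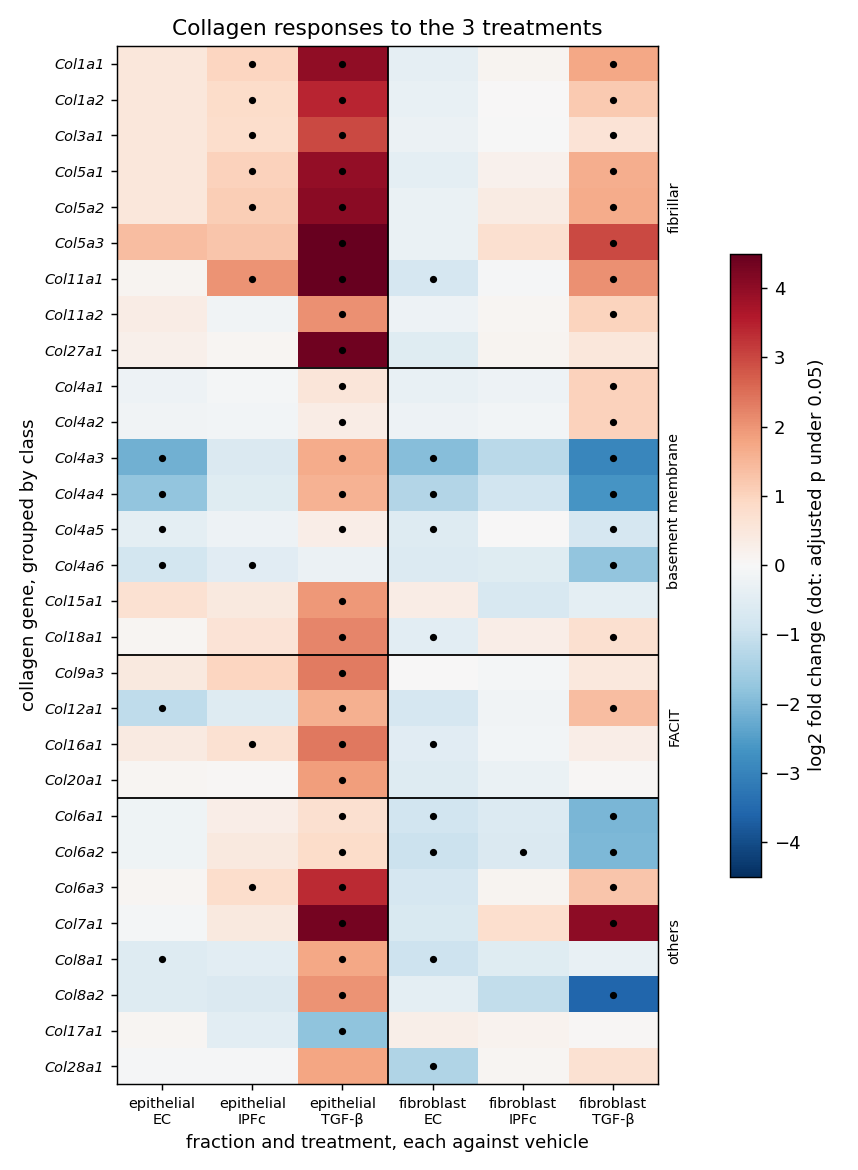
Log2 fold changes of the 29 collagens that passed in at least 1 of 6 comparisons with vehicle, by class, with red for higher and blue for lower values and dots for an adjusted p under 0.05 (edgeR). The fibroblast TGF-β column shows red fibrillar genes next to blue Col4a3 to Col4a6, Col6a1 and Col6a2, and the epithelial TGF-β column is red for 26 of its 27 called genes.

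In the epithelial fraction, TGF-β raised 26 of 35 tested collagens and lowered 1, against 21.0% and 20.1% of all genes. The median log2 fold change was 1.76 over the collagens and 0.033 over all genes. All 9 fibrillar collagens that passed rose, with 7 basement membrane, 4 FACIT and 6 other collagens. The fibroblast marker ratio rose over the same comparison, from 5.45% to 28.4%. After subtraction 13 collagens rose and 3 fell, against 11.16% and 15.58% of all genes. The fall of Col18a1 rests on counts set to 0. Of the 27 calls, 14 kept their direction (plot of fold changes before and after subtraction). These values separate the collagens into those at the level of the fibroblast markers and those above it.

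The main interstitial chains of types I and III belonged to the first kind. Col1a1 was at 1086, 1054 and 1025 CPM in the epithelial TGF-β libraries of mice 2, 3 and 4, all above the 56.7 to 131 CPM of the vehicle libraries (16.0-fold, log2 4.00, SE 0.24, adjusted p = 5.07e-11). Col3a1 was at 279, 268 and 276 CPM, against 32.9 to 66.7 CPM (7.82-fold, log2 2.97, SE 0.23, adjusted p = 1.67e-09). After subtraction the value of Col1a1 was 0.70 and did not pass (adjusted p = 0.845), and that of Col3a1 turned to -4.71 (adjusted p = 0.167). Subtracted Col3a1 was at 0 CPM in every epithelial TGF-β library and at most 1.283 CPM with vehicle, so this value rests on counts set to 0. Col1a2, Col5a1, Col6a3, Col16a1 and Col20a1 likewise no longer passed. The type V chain Col5a2 lay between the kinds, at 32.9 to 39.2% of the fibroblast partner with TGF-β. This was above the median marker ratio in 3 of 3 cultures and above the highest marker in 0. After subtraction its mean was 5.79 CPM with vehicle and 122 CPM with TGF-β.

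Fibrillar chains with low levels in the vehicle libraries also rose. Col11a1 was at 0.823, 0.487, 0.872 and 1.10 CPM with vehicle and at 22.2, 24.9 and 17.2 CPM with TGF-β (log2 fold change 4.79, SE 0.26, adjusted p = 1.80e-11). Its level was 51.0 to 60.4% of that in the fibroblast partner, above the highest marker in all 3 pairs. Col27a1, a fibrillar collagen of cartilage and developing epithelia, was at 0.480, 1.54, 1.80 and 0.0849 CPM with vehicle and at 15.4, 24.4 and 17.7 CPM with TGF-β (4.39, SE 0.45, adjusted p = 1.01e-07). It was 256 to 324% of the fibroblast partner. In the fibroblast fraction the smaller change passed without the fibroblast EC library of mouse 1 (0.57, adjusted p = 0.0466) but not with it. Col5a3 was at 11, 3, 3 and 0 reads with vehicle and at 171, 176 and 48 reads with TGF-β (5.51, SE 0.57, adjusted p = 1.13e-07). Its median ratio to the partner was 30.9%, close to the markers and above the highest of them in 1 of 3 pairs, and after subtraction it was at 0 in 1 of the TGF-β libraries. All 3 genes were higher in every TGF-β library than in any vehicle library in the deposited counts and passed after subtraction, with adjusted p = 5.34e-05 for Col11a1, 0.000708 for Col27a1 and 0.0163 for Col5a3.

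The α3 and α4 chains of type IV rose in the epithelial fraction. Col4a3 was at 8.84, 6.25, 12.9 and 11.7 CPM with vehicle and at 38.5, 33.3 and 30.7 CPM with TGF-β (3.15-fold, log2 1.65, SE 0.22, adjusted p = 4.05e-06). Col4a4 was at 9.65 to 16.5 CPM with vehicle and at 37.9 to 42.1 CPM with TGF-β (2.93-fold, log2 1.55, SE 0.20, adjusted p = 2.06e-06). The groups did not overlap for either gene, and both still rose after subtraction, by 2.09 and 1.98. Col4a6 was at 25.9 to 30.8 CPM with TGF-β and at 33.1 to 37.2 CPM with vehicle and did not pass (-0.27, adjusted p = 0.138). The alveolar type 1 markers, cells known for the α3 and α4 network, summed to 1568 to 1910 CPM in the epithelial vehicle and 578 to 743 CPM in the epithelial TGF-β libraries; their part in these values was not tested.

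The direction of the Col4a1 and Col4a2 changes depended on the subtraction. Col4a1 was at 1000, 872 and 921 CPM with TGF-β and at 554 to 732 CPM with vehicle (1.46-fold, log2 0.54, SE 0.11, adjusted p = 0.000534), and after subtraction its value was -0.06 (adjusted p = 0.826). Col4a2 rose by 0.32 (adjusted p = 0.031) and after subtraction fell by 0.59 (adjusted p = 0.0198). Col18a1, which rose by 2.18, was in every TGF-β culture below the median fibroblast marker ratio, and after subtraction it was lower with TGF-β. That lower value rests on counts set to 0. Subtracted Col18a1 was at 0 CPM in every TGF-β library and at a mean of 27.5 CPM with vehicle.

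Col7a1, Col12a1 and Col8a1 were further collagens that rose in the epithelial fraction both before and after subtraction. Col7a1 was at 4.497 to 15.4 CPM with vehicle and at 190 to 195 CPM with TGF-β (log2 fold change 4.30 and, after subtraction, 3.46). It was above the highest fibroblast marker in 1 of 3 pairs. Col12a1 was at 8.52 to 13.4 CPM and at 34.9 to 36.6 CPM (1.60 and 1.53), and Col8a1, a network collagen of vessels and epithelia, rose by 1.74 and 2.06. Col6a1 and Col6a2, which fell in the fibroblast fraction, rose in the epithelial fraction by 0.73 and 0.81 (adjusted p = 0.00375 and 0.00213). Col17a1 was the only collagen that fell before subtraction (-1.81, SE 0.27, adjusted p = 1.26e-05), with 38.9, 26.4 and 1.02 CPM in the vehicle libraries of mice 2, 3 and 4 and 9.42, 6.05 and 1.14 CPM with TGF-β, so that it was lower in 2 of 3 mice. Without the mouse block it no longer passed, since no collagen was lower in that fit.

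**Figure D4:**
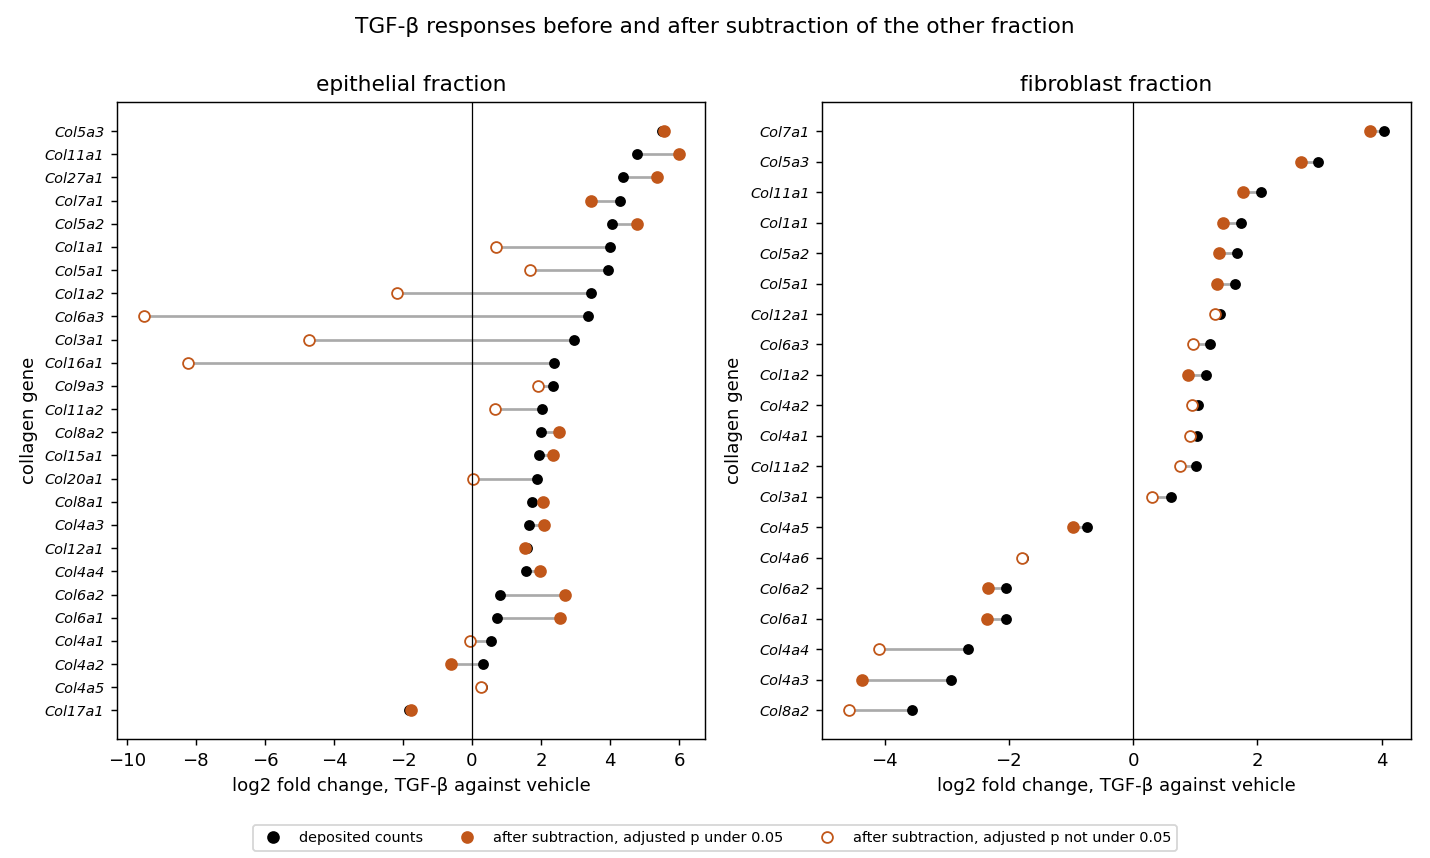
Log2 fold changes with TGF-β of the collagens called in each fraction, from the deposited counts (black) and after subtraction of the other fraction's share (orange, filled for an adjusted p under 0.05), for 26 epithelial and 20 fibroblast genes. Col18a1 is left out of both panels because its subtracted counts were 0 in every epithelial TGF-β library. Its subtracted fibroblast levels did not reach 0. Epithelial Col3a1, Col6a3 and Col16a1 are drawn, although their subtracted counts were also 0 in every TGF-β library. Epithelial Col1a1, Col1a2, Col3a1, Col6a3 and Col16a1 move far to the left, whereas Col4a3, Col7a1, Col11a1 and Col27a1 stay high.

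Whether TGF-β acted differently on the fractions was tested as an interaction over all 30 libraries, as the epithelial log2 fold change minus the fibroblast one. Of 35 collagens, 20 had a higher and 2 a lower value in the epithelial fraction, against 20.2% and 7.36% of all genes. The median over all genes was 0.21, and over the collagens 2.11. Among collagens that rose in the epithelial and fell in the fibroblast fraction, the largest difference was that of Col8a2 (5.56, SE 1.05, adjusted p = 0.000202), which rests on few reads in the fibroblast libraries. It was followed by those of Col4a3 (4.54, SE 0.43, adjusted p = 9.52e-09), Col4a4 (4.15, SE 0.42, adjusted p = 2.87e-08), Col6a2 (2.87, SE 0.24, adjusted p = 2.07e-09) and Col6a1 (2.81, SE 0.26, adjusted p = 5.96e-09). These 5 differences passed after subtraction as well, with values of 7.06, 6.10, 5.58, 4.95 and 4.99. Those of Col1a1 (2.29) and Col5a1 (2.34) passed before but not after subtraction. In total 9 collagens were higher and 5 lower after it, against 7.833% and 4.842% of all genes.

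EC lowered type IV chains of the epithelial network in the epithelial fraction. Of 35 collagens tested there, 6 fell and none rose, against 2.44% and 1.96% of all genes. Of the collagens tested 14 had an unadjusted p under 0.05. The median log2 fold change over the collagens was 0.071, against 0.003 over all genes. The collagens that fell were Col4a3, Col4a4, Col4a5, Col4a6, Col12a1 and Col8a1. Col4a3 was at 8.84, 6.25, 12.9 and 11.7 CPM with vehicle and at 1.42, 2.96, 2.09 and 2.64 CPM with EC in mice 1 to 4 (4.5-fold lower, log2 -2.17, SE 0.25, adjusted p = 6.50e-06). Col4a4 was at 16.5, 9.65, 14.9 and 14.0 CPM with vehicle and at 4.47, 4.14, 3.82 and 3.51 CPM with EC (log2 -1.78, SE 0.21, adjusted p = 8.90e-06). Col12a1 was at 11.9, 8.52, 12.7 and 13.4 CPM with vehicle and at 4.69, 5.25, 5.37 and 6.05 CPM with EC (-1.13, SE 0.18, adjusted p = 0.000306). For these genes all EC libraries lay below all vehicle libraries, and each fell in 4 of 4 mice.

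Col4a6 and Col4a5, whose genes are neighbours on the X chromosome, fell by 0.83 and 0.46 on the log2 scale, and Col8a1 by 0.59. All but Col8a1 also passed after subtraction, when 1.202% of all genes fell and 0.7941% rose. Alveolar type 1 markers summed to 1154 to 1322 CPM with EC and to 1568 to 1910 CPM with vehicle, and their part in these values was not tested. Col4a1 was at 485 to 599 CPM with EC and at 554 to 732 CPM with vehicle, which did not pass (-0.24, adjusted p = 0.276). Col1a1 (0.51, adjusted p = 0.234) and Col3a1 (0.53, adjusted p = 0.205) did not pass either, with a fibroblast marker ratio of 11.3% against 5.45%. Col4a3 and Col4a4 lie head to head on chromosome 1 and overlap by 114 bases in RefSeq (chr1:82586921-82722059 and chr1:82448419-82587034, GRCm38.p6). The window of Col4a4 (chr1:82586800-82587099, minus strand), which covers the start of Col4a3, is shown because both genes fell with EC and rose with TGF-β.
Col4a4: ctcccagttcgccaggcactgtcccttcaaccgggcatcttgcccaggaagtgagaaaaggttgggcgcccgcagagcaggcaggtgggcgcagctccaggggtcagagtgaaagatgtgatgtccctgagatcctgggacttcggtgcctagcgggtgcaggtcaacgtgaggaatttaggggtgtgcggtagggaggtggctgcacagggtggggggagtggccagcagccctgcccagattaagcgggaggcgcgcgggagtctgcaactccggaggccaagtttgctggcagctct
Neither CCAAT nor GGGCGG occurred in it. The counting of reads over the overlap of the genes is not given in the sources used here.

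In the fibroblast fraction EC lowered 10 of 36 tested collagens and raised none, against 2.84% and 4.28% of all genes. The median log2 fold change was -0.56 over the collagens and -0.022 over all genes. Col4a3 was at 3.98, 9.46 and 7.49 CPM in the vehicle libraries of mice 1, 3 and 4 and at 0.400, 4.00, 2.91 and 3.19 CPM in the EC libraries of mice 1 to 4 (log2 fold change -1.90, SE 0.33, adjusted p = 0.00248). Col4a4 was at 3.91, 6.04 and 6.61 CPM with vehicle and at 0.600, 4.70, 3.22 and 3.58 CPM with EC (-1.32, SE 0.35, adjusted p = 0.0312). Col28a1, a low beaded-filament-like collagen, was at 29, 53 and 42 reads with vehicle and at 4, 14, 27 and 19 reads with EC (-1.34, SE 0.31, adjusted p = 0.0158). In each case the library of mouse 1 was the lowest EC library. The remaining genes that fell were Col6a2 (-0.95), Col8a1 (-0.92), Col6a1 (-0.87), Col11a1 (-0.77), Col4a5 (-0.60), Col16a1 (-0.52) and Col18a1 (-0.48).

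Without the EC library of mouse 1, 11 collagens fell, 9 of them among the 10 above. Col4a3 was then at -1.77 (adjusted p = 0.000505) and Col6a1 at -0.82 (adjusted p = 9.91e-05). The epithelial marker ratio was 43.8% with EC and 19.6% with vehicle, and after subtraction no collagen passed (edgeR), while over all genes 28 rose and 10 fell. Of the 36 collagens 5 then had an unadjusted p under 0.05. Without the mouse block 3 collagens fell. Col1a1 was at 817, 1048, 1241 and 848 CPM with EC and at 1335, 1179 and 1369 CPM with vehicle and did not pass (-0.40, adjusted p = 0.122). Col3a1 at 574 to 856 CPM and Col4a1 at 432 to 911 CPM did not pass either (-0.26 and -0.34, adjusted p = 0.231 and 0.223). The response to EC differed between the fractions for 1 collagen, Col16a1 (0.91 higher in the epithelial fraction, SE 0.26, adjusted p = 0.0379), against 1.26% higher and 3.33% lower of all genes. It was lost without the mouse block, after subtraction and when any mouse was left out.

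IPFc, which contains TGF-β, changed fewer collagens in each fraction than the treatment with 2 ng/ml TGF-β. The concentration of TGF-β in IPFc is not given here. In the epithelial fraction 8 of 35 rose and 1 fell, against 2.57% and 1.53% of all genes, with medians of 0.067 over the collagens and 0.006 over all genes. Of those that rose 6 were fibrillar. Col11a1 was at 0.823, 0.487, 0.872 and 1.10 CPM with vehicle and at 3.97, 3.49, 2.46 and 3.77 CPM with IPFc, without overlap (log2 fold change 2.03, SE 0.27, adjusted p = 6.76e-05). Col5a2 was at 35.6, 26.5, 23.6 and 30.7 CPM with vehicle and at 95.2, 98.3, 35.2 and 44.2 CPM with IPFc (1.12, SE 0.19, adjusted p = 0.00122). Col5a1 was at 51.3, 26.4, 27.1 and 24.9 CPM with vehicle and at 110, 100, 31.7 and 44.8 CPM with IPFc (1.04, SE 0.20, adjusted p = 0.00333). For Col5a1 the groups overlapped, and for Col5a2 the IPFc library of mouse 3 lay just under the highest vehicle library, although both genes were higher in 4 of 4 mice.

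Col1a1 was at 267, 268, 76.8 and 96.7 CPM with IPFc (0.96, SE 0.21, adjusted p = 0.00821) and Col3a1 at 111, 117, 33.5 and 55.5 CPM (0.78, SE 0.20, adjusted p = 0.0315). For both, mice 1 and 2 were well above mice 3 and 4. The fibroblast marker ratio in these libraries was 12.4% and 13.6% in mice 1 and 2 and 4.90% and 9.998% in mice 3 and 4. After subtraction only Col11a1 passed (3.36, adjusted p = 0.0378), while 0.6807% of all genes rose and 0.329% fell. Without the mouse block 2 collagens passed. Col4a6 fell (-0.51, SE 0.13, adjusted p = 0.0242), from 33.1 to 37.2 CPM to 20.2 to 27.5 CPM. Col4a1 at 585 to 727 CPM did not pass (-0.09, adjusted p = 0.838).

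In the fibroblast fraction IPFc raised none of 36 collagens and lowered 1, against 0.305% and 0.144% of all genes, and 10 had an unadjusted p under 0.05. DESeq2 called 1 higher and 3 lower. The median was -0.035 over the collagens and -0.003 over all genes. Col6a2 was at 134, 140 and 164 CPM in the vehicle libraries and at 85.3, 89.6, 115 and 87.8 CPM with IPFc, without overlap (-0.65, SE 0.13, adjusted p = 0.0355). The call was lost without the mouse block (adjusted p = 0.178), after subtraction (0.429) and without mouse 2, 3 or 4. Col1a1 (0.11), Col3a1 (-0.01) and Col4a1 (-0.21) did not pass, and neither did Col7a1 (0.77, SE 0.20, adjusted p = 0.164), although it was higher in all IPFc libraries, at 46.1 to 66.7 CPM, than in any vehicle library. The fibroblast EC library of mouse 1 is part of this fit. Without it Col7a1 passed as higher (0.80, adjusted p = 0.000766). Col6a1, Col6a2, Col8a1 and Col4a3 then passed as lower (adjusted p = 0.00334, 0.002, 0.0175 and 0.0392).

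The response to IPFc was higher in the epithelial fraction for 2 collagens, Col11a1 (2.10, adjusted p = 0.00357) and Col6a2 (1.09, adjusted p = 0.034), and lower for none, against 0.185% and 0.0436% of all genes. Of the collagens 9 had an unadjusted p under 0.05, and DESeq2 also called 2 higher and none lower. After subtraction Col11a1 remained higher (3.45, adjusted p = 0.0472), Col6a2 did not pass, and Col3a1 was lower (-4.89, adjusted p = 0.00208). The Col3a1 value rests on counts set to 0. Subtracted epithelial Col3a1 was at 0 CPM in every IPFc library and at most 1.283 CPM with vehicle. Of all genes 0.2136% were then higher and 0.08764% lower. Leaving out a mouse gave 0 to 1 collagens, and without the mouse block 1 passed.

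Compared directly with TGF-β, IPFc gave lower collagen levels in both fractions. In the epithelial fraction 23 of 35 collagens were lower and 1 higher, against 18.7% and 18.6% of all genes, and the gene with the higher value was Col17a1 (1.32, adjusted p = 0.000534), in 2 of 3 mice. In the fibroblast fraction 15 of 36 were lower and 6 higher, against 5.33% and 12.1% of all genes. Those with higher values were Col4a3, Col4a4, Col4a5, Col4a6, Col6a1 and Col6a2 (1.74, 1.80, 0.76, 1.23, 1.45 and 1.39), the genes that fell with TGF-β, whose libraries enter both comparisons. Col7a1 was lower by 3.26 (SE 0.19, adjusted p = 2.60e-09) and Col1a1 by 1.63 (SE 0.14, adjusted p = 1.42e-07). The medians were -1.83 in the epithelial and -0.41 in the fibroblast fraction, against -0.04 and 0.009 over all genes. After subtraction 12 collagens were lower and 2 higher in the epithelial fraction, and 7 were lower and 4 higher in the fibroblast fraction. Of all genes 10.79% were then lower and 15.52% higher in the epithelial fraction, and 0.9221% and 2.961% in the fibroblast fraction.

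Collagens are matured by hydroxylases, chaperones, propeptide proteinases and crosslinking oxidases, of which 32 genes were considered beside the family. With TGF-β, 14 of 31 tested rose and 1 fell in the fibroblast fraction, against 6.39% and 12.8% of all genes. Those with the largest values were Tll1, a proteinase of the procollagen C-propeptide (1.60, adjusted p = 4.09e-05), and Lox, the lysyl oxidase that starts crosslinking (1.36, adjusted p = 2.76e-06). P3h2, a prolyl 3-hydroxylase known to modify type IV collagen, fell (-3.53, adjusted p = 4.29e-05). Its mean was 19.7 CPM in the epithelial and 3.24 CPM in the fibroblast vehicle libraries. The epithelial marker ratio in the fibroblast libraries fell over the same comparison, from 19.6% to 2.04%, and its part in this value was not tested. In the epithelial fraction 25 of 32 rose and 2 fell with TGF-β, against 21.0% and 20.1% of all genes, led by Tll1 (5.23) and Lox (4.26), with P3h2 (-0.98) and Ppib (-0.26) lower. After subtraction 6 rose and none fell in the fibroblast fraction, so that the call of P3h2 was lost there. In the epithelial fraction 13 then rose and 5 fell. The shares of all genes after subtraction were 1.403% and 3.436% in the fibroblast and 11.16% and 15.58% in the epithelial fraction.

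Lox also rose with the cocktails in both fractions. Its log2 fold changes were 1.42 with EC and 1.42 with IPFc in the epithelial fraction (adjusted p = 4.75e-05 and 6.24e-05) and 1.00 and 0.92 in the fibroblast fraction (adjusted p = 0.000837 and 0.00682). With EC, 4 of 32 processing genes rose and 4 fell in the epithelial fraction (1.96% and 2.44% of all genes), with Plod2 (0.57) next to Lox and with Sparc (-0.66), a collagen-binding chaperone, and Loxl4 (-0.57) lower. In the fibroblast fraction 2 of 31 rose (4.28% of all genes), with P4ha2 (0.41) next to Lox, and 3 fell (2.84%), led by Loxl3 (-0.91) and Fkbp14 (-0.62). With IPFc, 9 of 32 rose in the epithelial fraction (2.57% of all genes), led by Tll1 (1.66) and Loxl2 (1.44), and Lox was the only one in the fibroblast fraction. After subtraction no processing gene passed with IPFc in either fraction, Lox included. With EC 1 then rose and 3 fell in the epithelial fraction, and 1 rose and none fell in the fibroblast fraction. Of all genes 0.7941% rose and 1.202% fell in the epithelial fraction with EC after subtraction, and 0.1604% and 0.05727% in the fibroblast fraction.

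Of 9 collagen receptor genes 8 were tested, against the same shares of all genes. With TGF-β 4 rose in the fibroblast fraction, led by Itga11, the integrin chain of fibroblasts that binds fibrillar collagen (1.77, adjusted p = 0.000214), and Mrc2, an endocytic collagen receptor (0.75, adjusted p = 0.0012). In the epithelial fraction 5 rose, led by the discoidin receptor Ddr2 (2.88) and Mrc2 (2.84), and Itga1 fell (-0.72). Itga1 and Itga2 rose with EC in the fibroblast fraction (1.64 and 1.59, adjusted p = 0.00494 and 0.00177) and in the epithelial fraction (0.59 and 0.44, adjusted p = 0.0205 and 0.0405), and Ddr2 fell in the fibroblast fraction (-0.78). With IPFc, Mrc2 (0.84) and Ddr2 (0.72) rose in the epithelial and none in the fibroblast fraction. After subtraction 4 receptor genes rose and none fell in the epithelial fraction with TGF-β, against 11.16% and 15.58% of all genes. The call of Itga1 was thus lost, and no receptor gene passed in any other comparison with vehicle. Itga2 is an epithelial gene in vehicle cultures here, with a level higher than in fibroblasts by 2.75 on the log2 scale, and the epithelial marker ratio in the fibroblast fraction rose with EC.

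The collagens not described above were low. With a mean of under 1 read over the libraries of a fraction, 9 collagens were not tested in the epithelial and 8 in the fibroblast fraction, and Col9a1, Col9a2, Col13a1, Col19a1, Col26a1 and Col6a4 were in both sets. Col19a1 had 2 reads over all 30 libraries, Col13a1 had 6 and Col9a1 had 8. Col2a1, the cartilage collagen, was at 0.220 to 0.943 CPM in the means of the 8 groups, Col10a1 reached a group mean of 1.51 CPM in fibroblasts with TGF-β, and Col15a1 one of 1.29 CPM in epithelial libraries with TGF-β. Col6a6 reached at most 1.302 CPM as a group mean, and Col6a5, Col14a1, Col22a1, Col23a1, Col24a1 and Col25a1 stayed lower, at most 0.403 CPM. Col9a3, a FACIT chain of cartilage, had group means of 0.281 to 2.87 CPM and Col20a1 of 1.65 to 18.9 CPM.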

How the data were processed

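RNA of 30 sorted fractions was prepared with the NEBNext Ultra II Directional kit and sequenced on a Illumina NovaSeq. The authors trimmed reads (Trimmomatic 0.30) and deposited raw counts per gene. The labels name GRCm39 and the study's methods GRCm38, and the aligner and counter are not given in the sources used here. Library totals were 5113828 to 20317181 counts. Low-count genes are correspondingly less precise, and read counts are not independent molecules.

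Samples were grouped by fraction and treatment from the labels, with the mouse as replicate. Genes with a mean count of at least 1 were tested with edgeR 4.0.16 (R 4.3.3; TMM, quasi-likelihood F-test, mouse as block), with the 15 libraries of a fraction in 1 fit, and all 30 for comparisons between fractions. P-values were adjusted by Benjamini-Hochberg over all genes tested (18024, 18048 and 18364), with a threshold of 0.05. The labels give the mouse of each library, and within a fraction libraries of the same mouse deviated together on average (mean correlation 0.297 epithelial, 0.319 fibroblast). Single pairs ranged from 0.0017 to 0.653 in the epithelial and from -0.282 to 0.690 in the fibroblast fraction. The line of fibroblasts was the same in all cultures, so the block reflects the epithelial donor and the culture.

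Alternatives were DESeq2 1.42.0, its size factors, other count filters, no block, separate fits per comparison, leaving out each mouse, and subtracting counts of the other fraction, with its share estimated as the median ratio of markers other than collagens. Leaving out the fibroblast EC library of mouse 1 was added after seeing the data. CPM per kb used GENCODE vM39 transcript lengths, and promoter windows came from RefSeq (GRCm38.p6). The fit was tested on simulated data. Collagens were grouped by type. By rule, values of every library are given for Col1a1, Col3a1 and Col4a1 and, against vehicle, for the 3 higher and 3 lower called collagens with the largest log2 fold changes and 1 direction across all mouse pairs; any called collagen may be named, and of processing and receptor genes the 2 highest and 2 lowest called. Library values of other collagens (Col7a1, Col6a1 and Col4a3 among them) were added after values were seen. The members and lists were chosen with earlier results of these data known.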

Additional observations from a re-analysis of the deposited data

Results flagged for a closer look

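Of the described collagens, 6 values lay far from the rest of their group (a gap over the 95% critical value of Dixon's ratio), of 96 groups checked. Chance gives about 1 in 20. Col4a1 was at 727.4 CPM in the epithelial IPFc library of mouse 2 (others 585.3 to 602.5) and at 431.5 CPM in the fibroblast EC library of mouse 1 (others 874.5 to 911.4). Col5a1 was at 51.27 CPM (others 24.86 to 27.13) and Col6a2 at 13.57 CPM (others 9.282 to 9.977) in the epithelial vehicle library of mouse 1, which also had the highest fibroblast marker ratio of its group, 8.26%. In the fibroblast IPFc library of mouse 3, Col27a1 was at 7.159 CPM (others 4.989 to 5.086) and Col6a2 at 115.0 CPM (others 85.25 to 89.55).

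The response of 25 collagen values differed between the fractions by the interaction test, given here as the epithelial minus the fibroblast log2 fold change. With EC this was Col16a1 (0.912), and with IPFc Col11a1 (2.1) and Col6a2 (1.088). With TGF-β the fibrillar genes were Col1a1 (2.286), Col1a2 (2.286), Col3a1 (2.391), Col5a1 (2.341), Col5a2 (2.411), Col5a3 (2.451), Col11a1 (2.758) and Col27a1 (3.908). The basement membrane genes were Col4a2 (-0.707), Col4a3 (4.537), Col4a4 (4.149), Col4a5 (1.061), Col4a6 (1.521) and Col18a1 (1.483). The others were Col16a1 (2.129), Col20a1 (1.812), Col6a1 (2.805), Col6a2 (2.873), Col6a3 (2.135), Col8a1 (2.113), Col8a2 (5.561) and Col17a1 (-1.803). The fibroblast marker ratio in the epithelial libraries rose with TGF-β and the epithelial marker ratio in the fibroblast libraries fell. After subtraction, 11 of these 22 TGF-β differences passed in the same direction. In total 9 collagens were then higher and 5 lower, against 20 and 2 before. Of all genes 7.833% were then higher and 4.842% lower.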

How the results depend on the processing

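Of 436 alternative values for 38 described gene results, 388 stayed on their side of the threshold, 40 kept the direction but lost the threshold, 4 gained it and 4 turned. Direction was compared only where the reported or the alternative value passed. Changes of sign between values that did not pass are therefore among the 388. The 4 that turned were all after subtraction of the other fraction's share, for epithelial Col1a1 (-0.024) and Col3a1 (-4.419) with IPFc and epithelial Col3a1 (-4.709) and Col4a1 (-0.059) with TGF-β. Subtracted Col3a1 was at 0 CPM in every epithelial IPFc and TGF-β library, so its values rest on counts set to 0. Numbers of called collagens were within 1.5 times the reported number in 98 of 140 alternatives. Subtraction left 1 collagen for epithelial IPFc, 16 for epithelial TGF-β, 0 for fibroblast EC, 0 for fibroblast IPFc, 11 for fibroblast TGF-β, 14 for epithelial and 11 for fibroblast IPFc against TGF-β, and 14 for the difference between fractions in the response to TGF-β. Without the replicate block, which pairs the libraries of a mouse, the numbers were 2 for epithelial IPFc, 3 for fibroblast EC, 0 for fibroblast IPFc, and 0 and 1 for the differences in the responses to EC and IPFc. With no filter on low counts they were 12 for epithelial EC, 16 for epithelial IPFc, 16 for fibroblast EC, 4 for fibroblast IPFc, and 11 and 10 for those differences. For fibroblast IPFc, DESeq2 gave 4, its size factors 2, a mean count of at least 10 gave 3 and separate fits 4. For the difference in the response to EC, DESeq2 gave 3 and separate fits 6. Leaving out 1 mouse gave 4 to 6 for epithelial EC, 5 to 9 for epithelial IPFc, 23 to 25 for epithelial TGF-β, 3 (without mouse 3) to 14 (without mouse 1) for fibroblast EC, 0 to 4 for fibroblast IPFc, 20 to 21 for fibroblast TGF-β, 0 for the difference in the response to EC, 0 to 1 for IPFc and 19 to 24 for TGF-β. Without the fibroblast EC library of mouse 1, fibroblast IPFc gave 5 collagens, and the differences in the responses to EC and IPFc gave 1 and 2. The causes were not tested. Collagens with few reads, such as Col8a2, limit what depth can show.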

Other observations

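Col17a1 ranged from 1.02 to 38.9 CPM between mice within the epithelial vehicle group, and its values are given beside the summed level of 4 basal cell markers. In the epithelial vehicle libraries of mice 1 to 4 the markers summed to 348, 1074, 613 and 26.4 CPM, and Col17a1 was at 15.01, 38.9, 26.4 and 1.02 CPM. With EC the sums were 292, 628, 299 and 43.9 CPM and Col17a1 was at 17.0, 41.0, 22.4 and 2.05 CPM. With TGF-β the sums in mice 2, 3 and 4 were 80.1, 44.6 and 6.02 CPM and Col17a1 was at 9.42, 6.05 and 1.14 CPM. Mouse 2 had the highest and mouse 4 the lowest value of both in each of these groups.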
